A study of Rattus norvegicus with 54 samples.

Results

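Growth factor receptors switch on the RAS and ERK kinase cascade, and active ERK induces genes whose products restrain the same cascade. The Sprouty proteins (Spry1, Spry2 and Spry4) and the related Spred proteins (Spred1 and Spred2) act between the receptor and the RAF kinases. The dual specificity phosphatases act further down: Dusp6 removes phosphate from ERK in the cytoplasm, Dusp5 does so in the nucleus, and Dusp4 is a nuclear phosphatase of several MAP kinases. Etv4 and Etv5 are ETS transcription factors that carry the response to fibroblast growth factors into transcription. They are known as induced outputs of the pathway rather than as inhibitors, so the 10 genes are called feedback genes here. Neural progenitors are commonly expanded with epidermal and fibroblast growth factors, which keep this loop engaged, and are commonly differentiated by withdrawing them; the medium used in this study is not given in the sources used here.

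The 10 genes were taken by their symbols from the authors' array summary table, where each has 1 main probe set out of 27342 on the array. The group was chosen by pathway after the signals of Dusp6 and Spry4 had been seen to be higher in undifferentiated subventricular zone cultures from diseased rats, so that contrast is described without a test, and the others are tested across all probe sets. The other gene lists and the marker lists used below were also chosen with earlier results of these data known. Their counts are therefore not independent of these data. The study measured 54 arrays in 18 groups of 3. Neural progenitor cell (NPC) cultures were grown from rats with experimental autoimmune encephalomyelitis (EAE, an immune disease of the central nervous system that models multiple sclerosis) and from naive, healthy rats. Their sources were the cervical, thoracic and caudal spinal cord and the subventricular zone (SVZ), the stem cell niche beside the lateral ventricles of the forebrain. Differentiated cultures were harvested after passage 2 and 5 days of differentiation, and undifferentiated cultures after passage 2. Biopsies of the SVZ, taken from EAE and from naive rats, were arrayed without culture. The cultures carry the strain label Dark Agouti and the biopsies carry none; age, sex and the way EAE was induced are not given in the labels. Nothing in the labels tells whether the 3 replicates of a group were separate animals or cultures, and the p-values therefore rest on a spread between samples that may be technical.

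Values are PLIER signals, a linear intensity summarised over the probes of a gene, and levels of different genes are not set against each other. A log2 change is a difference of log2(signal + 16), which understates changes of dim genes, and is given with its standard error. A gene was called higher or lower where limma's adjusted p was at most 0.05 and the fold was 1.2 or more, among probe sets above a signal of 50 on at least 3 arrays of the comparison. Those limits are the ones in the study's design text. Median signals of the arrays ran between 51.61 and 120.1, and 50.52% to 74.49% of main probe sets lay above 50. The cultures were mixed: microglia and macrophage markers (12 genes) summed to between 2178 and 8726 in undifferentiated cord cultures from EAE rats, with all 12 above 50, and to between 129.1 and 539.0 in those from naive rats. In undifferentiated SVZ cultures the same sum was 152.9 to 167.8 in EAE and 128.9 to 141.1 in naive cultures, with none of the 12 above 50. Of 8 neural stem and progenitor markers, 7 lay above 50 in every undifferentiated SVZ culture and 6 or 7 in every undifferentiated cord culture. In 7 arrays, all naive, the correlation with their group mates was below 0.96: cervical replicates 2 and 3 and thoracic replicates 2 and 3 among undifferentiated cultures, and SVZ replicate 3 and thoracic replicates 2 and 3 among differentiated ones. In such bulk samples, fewer cells of a type and less RNA per cell cannot be told apart.

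Promoter sequence was available for 8 of the 10 genes, in 9 promoters, from RefSeq on the rat build GRCr8. Each sequence runs from 250 bases before to 50 bases after the annotated start. Since Etv4 and Etv5 are ETS factors and ERK acts on ETS, AP-1 and CRE-binding factors, 3 short motifs were searched on both strands: CCGGAA (ETS), TGANTCA (AP-1) and TGACG (a CRE core). The ETS letters were found in 3 of the 9 promoters, those of Dusp5, Spry4 and the first promoter of Spry2, and in 15.0% of all 33469 promoters of the table. The CRE core was found in 3 of the 9, those of Dusp5, Spred2 and the first promoter of Spry2, and in 21.2% of all. The AP-1 letters were in none of the 9 and in 7.33% of all. The promoters shown are those with an ETS match, followed by those of Dusp6 and Spry1, which moved with them and hold none of the 3 motifs in this window. Capitals mark the matches, of which TTCCGG and CGTCA are on the opposite strand; the ETS match starts at base 5 after the start in Dusp5, at -81 in Spry4 and at -171 in Spry2. A match is a description of letters and not a measured binding site.
Dusp5, chr1:262543524-262543823, plus strand: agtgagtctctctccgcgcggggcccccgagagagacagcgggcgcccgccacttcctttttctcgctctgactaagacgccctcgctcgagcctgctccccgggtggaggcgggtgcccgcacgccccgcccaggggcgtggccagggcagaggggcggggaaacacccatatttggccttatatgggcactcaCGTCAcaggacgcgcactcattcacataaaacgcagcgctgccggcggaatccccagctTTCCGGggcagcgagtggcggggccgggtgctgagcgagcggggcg
Spry2 first promoter, chr15:89111877-89112176, minus strand: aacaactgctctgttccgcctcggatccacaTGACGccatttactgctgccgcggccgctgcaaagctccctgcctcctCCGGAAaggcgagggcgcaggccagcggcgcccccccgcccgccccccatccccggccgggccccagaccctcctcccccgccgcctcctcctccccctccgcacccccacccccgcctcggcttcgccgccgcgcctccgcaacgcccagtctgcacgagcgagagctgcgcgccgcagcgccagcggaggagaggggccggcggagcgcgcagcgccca
Spry4, chr18:30702497-30702796, minus strand: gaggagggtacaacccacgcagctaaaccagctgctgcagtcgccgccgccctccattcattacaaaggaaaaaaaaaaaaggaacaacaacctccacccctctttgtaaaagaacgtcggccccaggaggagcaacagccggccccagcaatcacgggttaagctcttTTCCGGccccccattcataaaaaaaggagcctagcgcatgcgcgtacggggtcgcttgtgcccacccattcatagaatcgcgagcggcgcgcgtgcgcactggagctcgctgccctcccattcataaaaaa
Dusp6, chr7:35979354-35979653, plus strand: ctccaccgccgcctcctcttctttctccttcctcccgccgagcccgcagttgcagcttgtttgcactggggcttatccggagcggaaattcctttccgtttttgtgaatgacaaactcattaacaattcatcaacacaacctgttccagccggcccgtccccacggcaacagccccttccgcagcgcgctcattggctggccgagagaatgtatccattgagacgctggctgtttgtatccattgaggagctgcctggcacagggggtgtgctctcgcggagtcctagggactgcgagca
Spry1, chr2:122485097-122485396, plus strand: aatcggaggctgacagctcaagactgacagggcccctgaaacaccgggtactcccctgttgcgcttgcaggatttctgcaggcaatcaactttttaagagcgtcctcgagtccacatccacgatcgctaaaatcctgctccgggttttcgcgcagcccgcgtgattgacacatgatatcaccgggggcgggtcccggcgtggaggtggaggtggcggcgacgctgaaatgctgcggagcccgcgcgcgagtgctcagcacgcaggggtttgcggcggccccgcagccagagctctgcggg

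Undifferentiated SVZ progenitors held the most mRNA of nearly the whole set. Both undifferentiated SVZ groups stood above all other groups for 8 of the 10 genes, the exceptions being Dusp4 and Spred2. The EAE group of the pair was the highest of the 18 for 8 genes; Dusp5 was highest in the naive one and Dusp4 in differentiated naive cervical cultures (213.8 ± 106, SD, n = 3). For Dusp6, the 3 Sprouty genes, Etv4 and Etv5, all 8 undifferentiated groups lay above all differentiated cultures and biopsies. The lowest group was the differentiated SVZ of EAE rats for Dusp4, Dusp5, Spry2 and Spred1, the differentiated caudal cord of EAE rats for Spry1, Spred2, Etv4 and Etv5, and the biopsy for Dusp6 and Spry4. These are mean levels in the deposited scaling. With quantile or 75th percentile scaling of the arrays the top group was another for Spred1, Spred2 and Etv5, and under 1 or both of them the lowest group was another for Spry1, Spred2 and Etv4.

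The genes differed widely in range. The highest group mean was 67.6 times the lowest for Etv4, 36.2 times for Dusp6, 29.3 times for Etv5, 22.0 times for Spry1, 20.2 times for Spry4, 16.2 times for Dusp5 and 10.1 times for Spry2. It was 4.34 times for Dusp4, 3.97 times for Spred2 and 2.29 times for Spred1. Most steps in these orders were within the spread of replicates: of the 17 pairs of neighbouring groups, the arrays of both groups were apart in 3 pairs for Spry1, Spry4 and Etv5, in 2 for Dusp6, Spry2 and Etv4, in 1 for Dusp4 and Dusp5, and in 0 for Spred1 and Spred2. For Spry1 and Spry2 both steps at the top were among the separated ones. For Spry1, undifferentiated SVZ cultures averaged 1530 ± 57.1 in EAE and 1260 ± 128 in naive rats, and the next group, undifferentiated naive caudal cord, averaged 777.4 ± 233 (SD, n = 3 each). Spry2 stood in the same order, at 3327 ± 212, 2480 ± 248 and 1460 ± 228. The EAE and naive SVZ groups overlapped for Etv4, at 1583 ± 144 and 1443 ± 120, and the next group, undifferentiated naive cervical cord, stood at 423.3 ± 55.0.

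**Figure D1:**
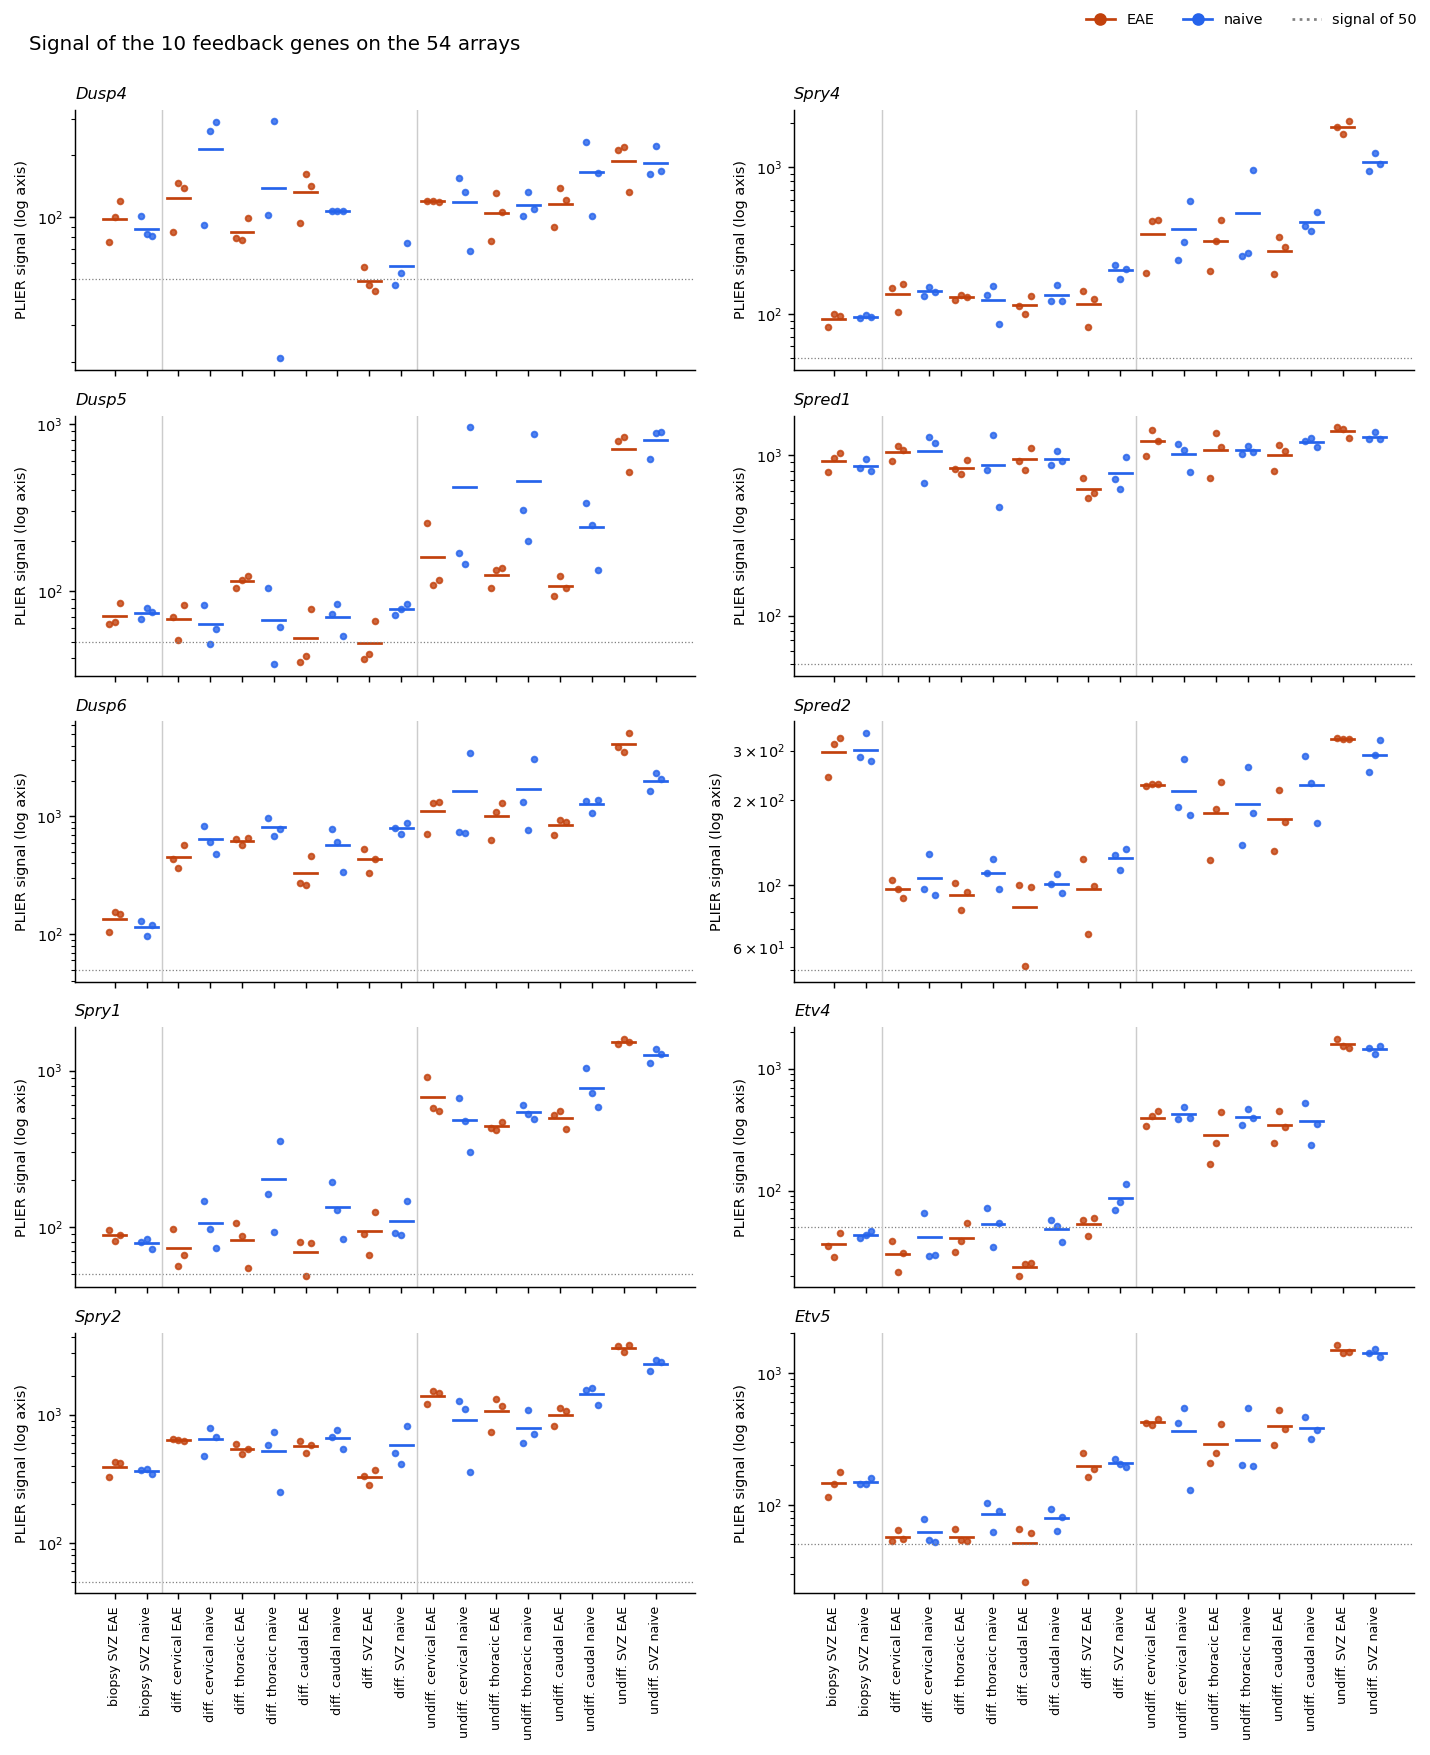
PLIER signal on a log axis for each of the 10 feedback genes on all 54 arrays; points are arrays, short lines are group means, EAE is orange and naive blue, and the dotted line marks a signal of 50. Both undifferentiated SVZ groups, at the right of each panel, stand above all others for 8 genes, and Spred1 spans only 2.29 times between its lowest and highest group means.

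Differentiation was accompanied by lower signals of all 10 genes in the SVZ. In naive SVZ cultures all 10 fell and were without overlap between stages; 26.0% of all probe sets tested were called lower there, and 34.5% were lower without overlap. The genes' median log2 change was -2.24, beside -0.09 over all probe sets tested. In EAE SVZ cultures all 10 fell as well, beside 28.5% of all probe sets, and were without overlap, beside 34.8%, with a median of -3.25 beside -0.01. The EAE counts and median include Dusp6 and Spry4, for which they are a description, since their undifferentiated EAE SVZ signals prompted the choice. Scaling to the 75th percentile brought the share of probe sets called lower to 19.4% in naive and 27.1% in EAE SVZ cultures and left all 10 genes called in both.

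Etv4 had the largest change. Its signals were 69.5, 80.6 and 112.5 in differentiated naive SVZ cultures, against 1471, 1312 and 1547 in undifferentiated ones. In EAE SVZ cultures they were 57.4, 42.4 and 59.7 after differentiation, against 1746, 1534 and 1470 before it. No differentiated culture came near the undifferentiated range. The log2 change was -3.83 ± 0.16 in naive (limma adjusted p = 1.73e-05) and -4.54 ± 0.12 in EAE cultures (adjusted p = 2.55e-08), but several of the differentiated values lie at the limit of 50, where the scale compresses. Etv5, its close relative, kept a clear signal in differentiated SVZ cultures, at 198.6 ± 42.5 in EAE and 205.8 ± 14.6 in naive rats (SD, n = 3 each). It fell by 2.83 ± 0.14 in EAE and by 2.70 ± 0.10 in naive SVZ cultures on the log2 scale (adjusted p = 6.57e-07 and 1.32e-05).

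Among the Sprouty genes, which bind adaptors of the receptor complex, Spry1 read 90.6, 65.8 and 125.1 in differentiated EAE SVZ cultures, against 1472, 1586 and 1532 in undifferentiated ones. In naive SVZ cultures its signals were 91.4, 88.7 and 147.1 after differentiation, against 1124, 1379 and 1279 before it. The stages were far apart in both. Spry1 was 14.4-fold lower after differentiation in EAE and 10.4-fold lower in naive cultures, measured on the log2(signal + 16) scale (adjusted p = 4.12e-07 and 4.28e-05). Spry4 was 14.6-fold lower in EAE, given as a description, and 5.10-fold lower in naive cultures (adjusted p = 5.45e-05). Spry2 was 9.74-fold lower in EAE and 4.37-fold lower in naive cultures (adjusted p = 9.48e-08 and 0.000725).

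The phosphatases followed. Dusp5 was 11.1-fold lower after differentiation in EAE SVZ cultures (adjusted p = 2.08e-06) and 8.55-fold lower in naive ones (adjusted p = 3.40e-05). Dusp6 kept a clear signal, with 530.0, 331.6 and 439.4 in differentiated EAE SVZ cultures against 3882, 3507 and 5089 in undifferentiated ones. Its naive SVZ signals were 804.9, 709.7 and 880.6 after differentiation, against 1649, 2318 and 2091 before it. The differentiated EAE cultures were thus the lower of the differentiated pair and the undifferentiated EAE cultures the higher of the other. The fall of Dusp6 was 9.33-fold in EAE, given as a description, and 2.48-fold in naive cultures (adjusted p = 0.000819). Spred1 and Spred2 had the smallest of the 10 falls in naive SVZ cultures, at 1.71-fold and 2.16-fold (adjusted p = 0.0114 and 0.000719), and Dusp4 was 2.70-fold lower there (adjusted p = 0.00101). The high EAE values of Dusp6 and Spry4 in undifferentiated SVZ cultures were known when the genes were chosen, so comparisons against those arrays are not independent of the choice for these 2 genes.

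In the spinal cord 8 of the 10 genes fell on differentiation in each disease state, averaged over the 3 segments, and Dusp4 and Spred1 did not pass the test. Cord means, here and below, treat the segments as independent samples. Deviations of same-numbered undifferentiated cervical and thoracic arrays from their group means correlated at 0.64, 0.57 and 0.40 in EAE and -0.30, 0.92 and 0.87 in naive cultures. The adjusted p of cord means may therefore be too small. In naive cord cultures 22.3% of all probe sets were called lower (10.1% with 75th percentile scaling, which called 6 of the 10 genes), and in EAE cord cultures 38.1% (21.6%, with 8 genes). The median change of the genes was -1.22 beside -0.19 for all probe sets in naive, and -1.01 beside -0.10 in EAE cord cultures. Arrays of the 2 stages did not overlap for 6 genes in EAE cord cultures, where 20.3% of all probe sets were lower without overlap, and for 5 in naive ones, where 2.99% were.

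Etv4 lay between 20.08 and 53.9, with a median of 30.94, on the 9 differentiated EAE cord arrays, against 165.4 to 451.3, with a median of 336.4, on the 9 undifferentiated ones. On naive cord arrays it lay between 29.32 and 72.46, with a median of 51.48, after differentiation, against 235.8 to 518.7, with a median of 393.1, before it. It was above 50 on 6 of the 18 differentiated cord arrays, so its level there is near the limit of measurement. The log2 change was -2.87 ± 0.15 in EAE and -2.70 ± 0.17 in naive cord cultures (adjusted p = 1.64e-11 and 9.31e-07). Etv5 fell by 2.40 ± 0.15 and by 1.91 ± 0.25 (adjusted p = 7.48e-11 and 0.000174), and Spry1 fell by 2.60 ± 0.13 and by 1.98 ± 0.24 (adjusted p = 6.63e-12 and 9.37e-05), each in EAE and in naive cord cultures on the log2 scale. Spred2, whose product acts on RAS and RAF, fell by 0.96 ± 0.13 in EAE and by 0.88 ± 0.14 in naive cord cultures (adjusted p = 2.46e-06 and 0.000616).

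The other 4 called genes changed less evenly. Spry4 fell by 1.14 ± 0.17 in EAE and by 1.45 ± 0.24 in naive cord cultures (adjusted p = 9.69e-06 and 0.000955). Dusp5 fell by 0.67 ± 0.15 in EAE and by 1.93 ± 0.36 in naive cord cultures (adjusted p = 0.000658 and 0.00179). Spry2 fell by 0.95 ± 0.10 in EAE cord cultures (adjusted p = 2.81e-07). Its naive change of -0.72 ± 0.25 passed narrowly (adjusted p = 0.0491), and missed the threshold with log2(signal + 1), without the signal filter and with 75th percentile scaling. Dusp6 fell by 1.06 ± 0.16 in EAE cord cultures (adjusted p = 1.17e-05). In naive cord cultures it was 2.003-fold lower (adjusted p = 0.0319), and its log2 change was -0.63 (adjusted p = 0.0858) without the arrays of low correlation; it missed the threshold under both rescalings too. Dusp4 differed by -0.02 ± 0.12 and -0.01 ± 0.34 in EAE and naive cord cultures (adjusted p = 0.874 and 0.984), and Spred1 by -0.20 ± 0.12 and -0.25 ± 0.18 (adjusted p = 0.161 and 0.309).

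The authors' deposited table gives ratios of differentiated over undifferentiated signal across all cultures, which pool regions and disease states. In the authors' deposited table the ratio was 0.0724 for Etv4, 0.141 for Spry1, 0.157 for Etv5, 0.186 for Dusp5, 0.212 for Spry4, 0.339 for Dusp6, 0.359 for Spry2 and 0.442 for Spred2. It was 0.762 for Spred1 and 0.818 for Dusp4.

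The size of the differentiation change was compared between cord and SVZ in naive cultures. All 10 differences were positive, meaning a smaller fall in the cord, with a median of 1.02 beside -0.12 over all probe sets. Only Etv4 was called, at 1.13 ± 0.31 (adjusted p = 0.0297), where 2.48% of all probe sets were called higher. Spry1 stood at 1.39 ± 0.44 (adjusted p = 0.0552) and Spry2 at 1.41 ± 0.48 (adjusted p = 0.0739). Leaving out replicate 1 or replicate 2 of every group gave 0 called genes and replicate 3 gave 4. Without the arrays of low correlation the difference was 1.67 for Spry2 and 1.75 for Dusp5. Only replicate 1 was then left in undifferentiated cervical, undifferentiated thoracic and differentiated thoracic naive cultures, so these values are a description. The shares of all probe sets under these leave-outs are not given here, so such counts do not single out the 10 genes. With 75th percentile and quantile scaling 5.8% and 7.68% of all probe sets were called higher, with 3 of the 10 genes each time. Etv4 was at or below 50 on 12 of the 18 differentiated cord arrays. Differentiation changes in EAE minus those in naive cultures, averaged over the 4 regions, include the SVZ contrast known from the choice and are given as a description, with 0 called genes among the 10, beside 2.68% of all probe sets called higher and 1.52% lower. By unadjusted p under 0.05, 5102 of the 20237 probe sets passed in that comparison.

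**Figure D2:**
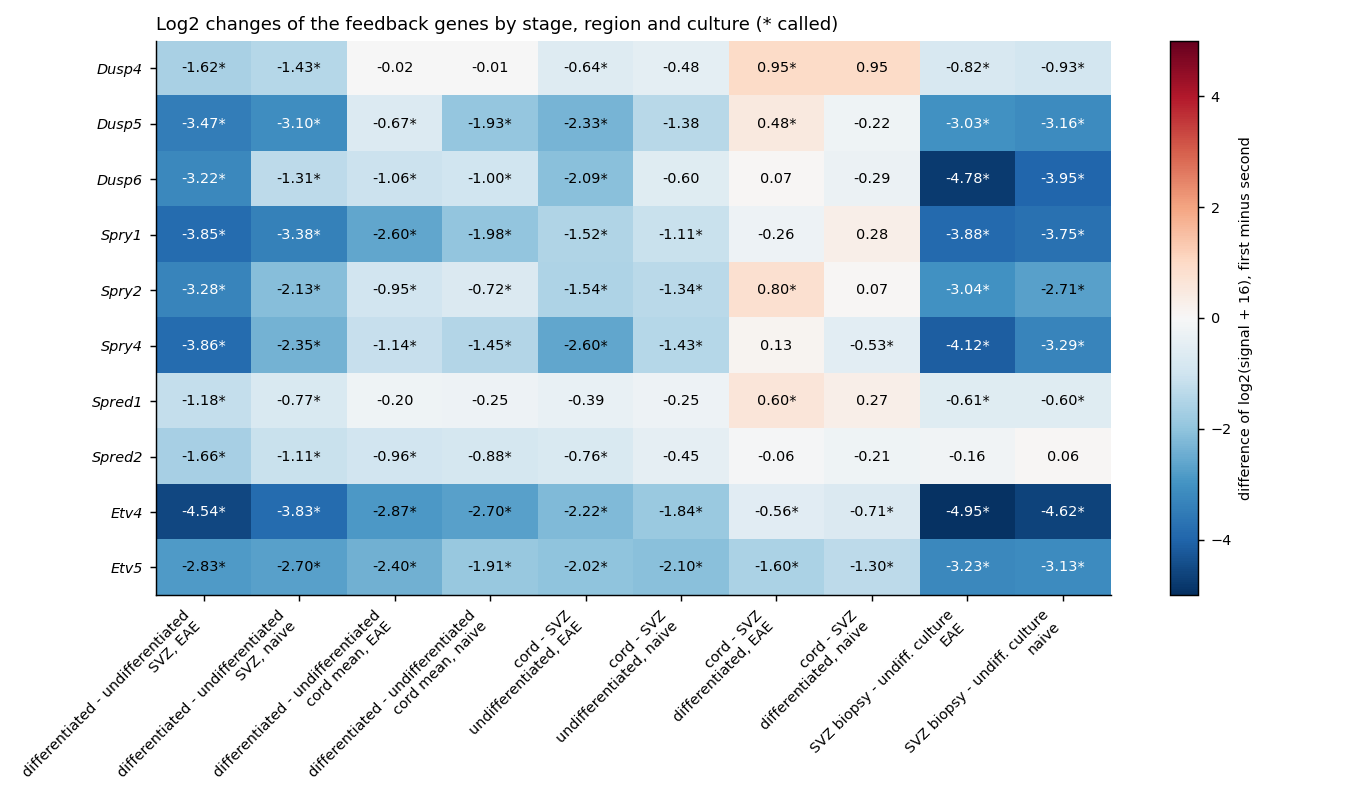
Log2 change of each feedback gene (rows) in 10 comparisons (columns); numbers are differences of log2(signal + 16), first group minus second, blue is lower in the first group, and asterisks mark calls. All 10 genes are lower after differentiation in the SVZ in both disease states, while in differentiated cultures the cord columns hold both signs.

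Cord progenitors held less mRNA of the set than SVZ progenitors. Among undifferentiated EAE cultures 9 of the 10 genes were lower in the cord, averaged over segments, and 8 without overlap; 29.2% of all probe sets were called lower (21.2% with 75th percentile scaling, with the same count of 9 genes) and 23.2% were lower without overlap. Among undifferentiated naive cultures 5 were lower, and 4 without overlap, beside 10.6% called lower and 11.4% lower without overlap. The median changes were -1.78 in EAE, beside -0.06 over all probe sets, and -1.23 in naive cultures, beside 0.03. The EAE counts and median include Dusp6 and Spry4, whose high signals on those EAE SVZ arrays prompted the choice. For these genes they are a description. These comparisons use the same undifferentiated SVZ arrays as the differentiation changes, so the results are not independent of each other.

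Spry4 was one of the 2 genes whose high EAE SVZ signals prompted the choice, and its regional difference in EAE cultures is therefore a description. It read 191.1, 432.8 and 433.0 in cervical, 196.1, 314.8 and 436.6 in thoracic and 187.8, 334.5 and 285.3 in caudal EAE cultures, against 1892, 1696 and 2051 in EAE SVZ cultures. The highest cord array, at 436.6, was far below the lowest SVZ array, at 1696. The change was -2.60 ± 0.25. Dusp6, known in the same way, was 4.26-fold lower in EAE cord than EAE SVZ cultures. Dusp5 was 5.02-fold, Etv4 4.66-fold and Etv5 4.06-fold lower (adjusted p = 2.81e-07, 9.72e-07 and 3.09e-07). Spry2 and Spry1 were 2.91-fold and 2.86-fold lower (adjusted p = 1.20e-06 and 3.28e-07). Spred2 was 1.70-fold and Dusp4 1.56-fold lower (adjusted p = 0.00108 and 0.00514), and Spred1 differed by -0.39 ± 0.17 (adjusted p = 0.0828).

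In naive undifferentiated cultures the genes called lower in the cord were Etv5 (-2.10 ± 0.40, adjusted p = 0.00451), Etv4 (-1.84 ± 0.20, adjusted p = 0.000138), Spry4 (-1.43 ± 0.39, adjusted p = 0.0245), Spry2 (-1.34 ± 0.34, adjusted p = 0.0172) and Spry1 (-1.11 ± 0.22, adjusted p = 0.00619). Dusp5 and Dusp6 did not pass, at -1.38 ± 0.57 and -0.60 ± 0.50 (adjusted p = 0.109 and 0.415). Both were high on the same 2 arrays. Dusp6 read 742.9, 717.2 and 3472 in cervical, 1325, 761.8 and 3089 in thoracic and 1360, 1072 and 1391 in caudal naive cultures, against 1649, 2318 and 2091 in naive SVZ cultures. Dusp5 read 168.9, 144.6 and 952.3 in cervical, 303.8, 199.2 and 872.4 in thoracic and 338.4, 250.4 and 134.4 in caudal naive cultures, against 613.7, 885.9 and 898.8 in naive SVZ cultures. Cervical replicate 3 and thoracic replicate 3 alone reached the SVZ range. Leaving out replicate 1 or 2 of every group gave 2 called genes, a count without the share of all probe sets beside it. Without the arrays of low correlation, those 2 included, only replicate 1 was left in the cervical and in the thoracic naive group. The log2 changes were then -1.73 for Dusp5, -0.88 for Dusp6 and -0.63 for Spred2, given as a description.

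Cervical replicate 3 and thoracic replicate 3 also stood out in fibroblast and pericyte markers. So did thoracic replicate 1, whose Dusp5 and Dusp6 signals were below the naive SVZ range. The mean log2 of the 11 markers was 8.30, 5.76 and 11.7 in the cervical, 11.7, 5.48 and 11.97 in the thoracic and 8.33, 9.19 and 9.44 in the caudal naive cultures. Spry4 read 584.5 in cervical replicate 3 and 964.0 in thoracic replicate 3, above every other undifferentiated cord array. Spry2 read 355.3 in cervical replicate 3, below every other one, and Etv5 read 130.2 and 195.5 in the 2 cultures and 199.9 in thoracic replicate 1, where the marker mean was also 11.7. Cell cycle markers were low in the same 3 arrays, with means of 6.29, 7.50 and 8.40 against 9.94 to 10.3 in the other cervical and thoracic naive cultures. The part of these cells in the feedback gene levels was not tested.

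**Figure D3:**
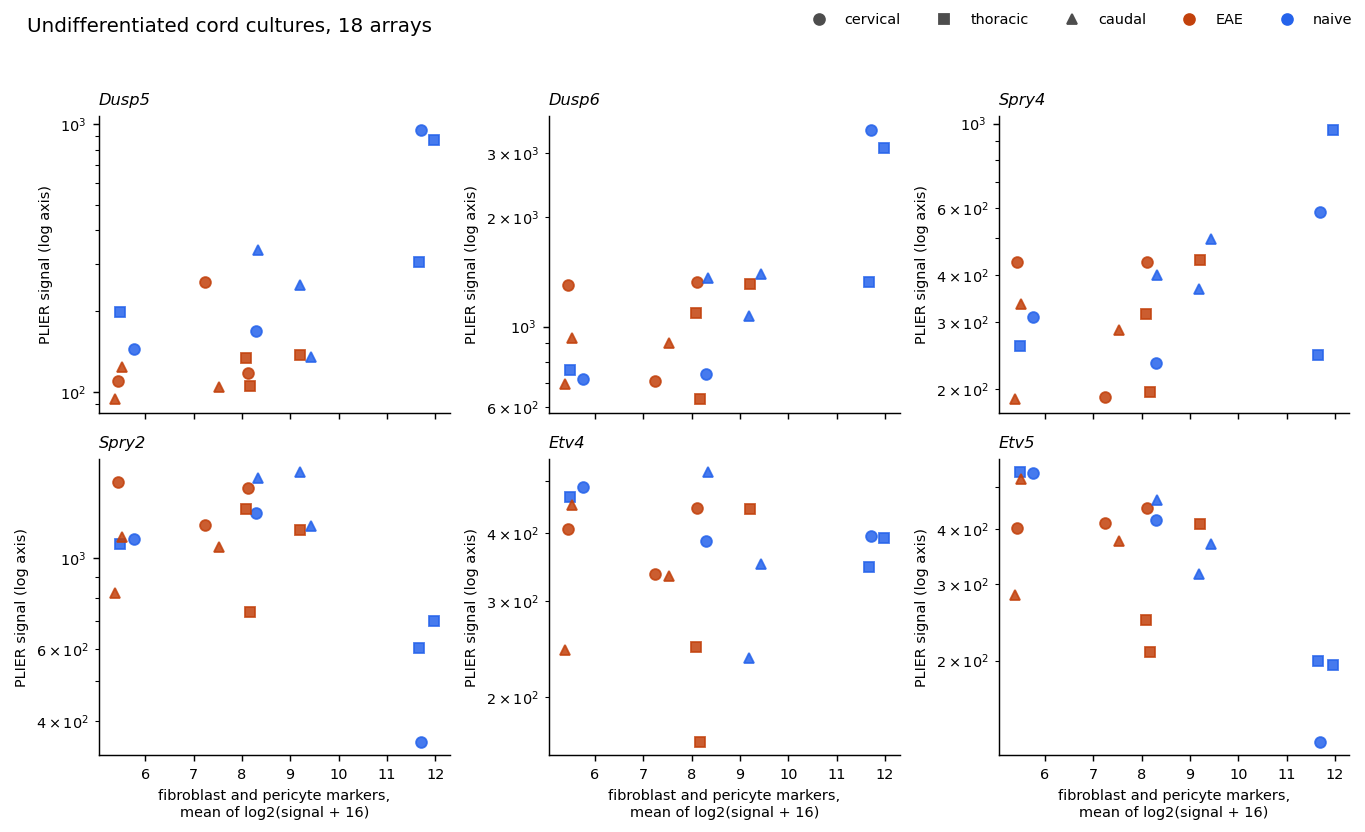
PLIER signal (log axis) of 6 feedback genes against the mean log2(signal + 16) of 11 fibroblast and pericyte markers on the 18 undifferentiated cord arrays; symbols give the segment, EAE is orange and naive blue. The 2 naive arrays highest in Dusp5, Dusp6 and Spry4 are at the right end of each panel, where Spry2 and Etv5 are low. Naive thoracic replicate 1 is also there, with Dusp5 and Dusp6 below the range of naive SVZ cultures.

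The receptors that feed this loop differed in both directions between cord and SVZ progenitors. Egfr, the receptor for epidermal growth factor, averaged 9.94 to 15.9 in EAE cord and 50.2 to 154.5 in naive cord groups, against 1830 ± 107 in EAE and 1678 ± 61.7 in naive SVZ cultures. Its signal was no higher than 21.84 on any undifferentiated EAE cord array, below the limit of 50, so the size of that difference is not measured. Fgfr1 was lower in the cord of EAE rats, at -1.80 ± 0.15, while Pdgfra, a receptor of oligodendrocyte progenitors, was higher, at 2.23 ± 0.12 (limma, both called). Erbb3, another such receptor, lay between 700.0 and 1226 in undifferentiated EAE cord cultures, against 28.14 to 38.8 in EAE SVZ cultures, where it was below the limit. Of 16 receptors, 6 were higher and 3 lower in EAE, beside 18.5% of all probe sets called higher and 29.2% lower, and 5 higher and 4 lower in naive cord cultures, beside 12.2% and 10.6%. Of 20 RAS and ERK cascade genes, 4 were higher and 6 lower in EAE, close to the shares of all probe sets, and 3 higher and 1 lower in naive cord cultures, with list medians of -0.21 and 0.01. Of the growth factor ligands, 5 were higher and 4 lower of 12 in EAE, and 4 higher and 0 lower of 18 in naive cord cultures.

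Immediate early genes, which ERK also induces, were lower in the same contrasts. Of 19 tested, 16 were lower and 0 higher in the cord than in the SVZ of EAE undifferentiated cultures, where 29.2% of all probe sets were lower, and 9 were lower and 0 higher in naive ones, where 10.6% were, with list medians of -1.82 and -1.06. Arc lay between 20.86 and 40.11 in undifferentiated EAE cord cultures, below the limit of 50, against 2185 to 2383 in EAE SVZ cultures. On differentiation 17 of 19 fell in EAE and 16 of 19 in naive SVZ cultures, where 28.5% and 26.0% of all probe sets were called lower. Fosb lay between 13.36 and 23.36 in differentiated SVZ cultures of both disease states, below the limit, against 3573 to 4808 in undifferentiated ones. In cord cultures 15 of 18 fell in EAE and 16 of 19 in naive ones, with list medians of -1.67 and -1.52. Of all probe sets, 38.1% and 22.3% were called lower there. Ier5 was higher after differentiation in EAE SVZ cultures, at 0.60 ± 0.15, and Fosl1 in EAE cord cultures, at 0.50 ± 0.08. Other feedback genes of receptor and MAP kinase signalling were more mixed. Of 21 tested, 14 fell and 5 rose on differentiation of EAE SVZ cultures, beside 28.5% of all probe sets lower and 26.3% higher, and 14 fell and 2 rose in naive ones, beside 26.0% and 13.3%, with list medians of -0.68 and -0.62. Dusp10, a phosphatase of JNK and p38, was lower after differentiation in the SVZ (-3.11 ± 0.20 in EAE and -2.92 ± 0.38 in naive cultures) and higher in the cord (1.30 ± 0.15 and 0.82 ± 0.29). The difference of the Dusp10 change between cord and SVZ in naive cultures was 3.74 ± 0.58 (adjusted p = 0.000343).

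In differentiated cultures the regional contrast was smaller and ran both ways. In EAE cultures Dusp4, Spry2, Spred1 and Dusp5 were higher in the cord than in the SVZ, where 17.4% of all probe sets were called higher, and Etv5 and Etv4 were lower, where 43.9% were called lower. Dusp5 averaged 114.7 in thoracic, 68.3 in cervical and 52.3 in caudal cultures, against 49.4 in the SVZ, and lost its call under 3 of 9 alternatives. Etv4 was near the limit of 50 on both sides, at 20.08 to 53.9 in the cord and a mean of 53.2 in the SVZ. Scaling to the 75th percentile moved the median of all probe sets by 0.44 and gave 47.2% called higher and 24.2% lower, with 7 of the 10 genes higher and 1 lower. Spry2 read 642.7, 628.9 and 626.7 in cervical, 592.8, 492.3 and 540.3 in thoracic and 628.6, 499.2 and 585.2 in caudal EAE cultures, against 333.1, 280.8 and 372.7 in EAE SVZ cultures. The cord arrays were all above the SVZ arrays, the opposite of the undifferentiated stage, with a change of 0.80 ± 0.11 (adjusted p = 1.42e-05). Dusp4 was higher in the cord by 0.95 ± 0.16 and Spred1 by 0.60 ± 0.12 (adjusted p = 0.000137 and 0.000692). Etv5 had a log2 change of -1.60 ± 0.18 in EAE (adjusted p = 1.46e-06) and a log2 change of -1.30 ± 0.16 in naive differentiated cultures (adjusted p = 0.000289). In the naive cultures Spry4 and Etv4 were also called lower, at -0.53 ± 0.16 and -0.71 ± 0.23 (adjusted p = 0.0391 and 0.0491), so 3 of the 10 genes were called, beside 22.5% of all probe sets in either direction; neither was called with quantile scaling, nor when replicate 1, 2 or 3 of every group was left out, which gave 1 called gene each time.

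Tissue of the SVZ held less of these mRNAs than progenitors grown from it, except for Spred2. The gap was smaller for Spred1 and Dusp4 than for the other genes lower there. Dusp4 averaged 98.5 in EAE biopsies against 187.4 in EAE cultures, and 88.1 against 183.7 in naive rats. Its EAE call was lost under 1 of 9 alternatives. Of the 10 genes, 9 were lower in biopsies than in undifferentiated cultures, in EAE (44.4% of all probe sets called lower) as in naive rats (43.7%), and all 9 without overlap in both, where 45.6% and 45.1% of all probe sets were lower without overlap. The median change was -3.14 in EAE, beside -0.12 over all probe sets, and -3.14 in naive rats, beside -0.10. For Dusp6 and Spry4, which are part of the EAE counts and median, the EAE values are a description. With 75th percentile scaling 35.9% and 35.6% of probe sets were called lower, with 9 of the 10 genes in each, and Spred2 was then called higher in naive biopsies.

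Etv4 was below 50 on all 6 biopsy arrays, at 35.0, 28.4 and 45.1 in EAE and 40.8, 43.0 and 46.4 in naive biopsies. Undifferentiated SVZ cultures lay between 1312 and 1746. Etv4 was called lower in EAE and in naive biopsies (adjusted p = 2.37e-12 and 6.46e-13), and the size of the change is not measured at these dim readings. Dusp6 read 104.1, 154.2 and 148.7 in EAE biopsies against 3882, 3507 and 5089 in EAE cultures. In naive rats it read 129.8, 96.4 and 118.8 in biopsies against 1649, 2318 and 2091 in cultures. The biopsy was 27.5-fold lower in EAE and 15.5-fold lower in naive rats (adjusted p = 3.24e-11 in naive rats). Spry4 was 17.4-fold lower in EAE and 9.76-fold lower in naive rats (adjusted p = 3.24e-11 in naive rats). The EAE changes of Dusp6 and Spry4 use the arrays that prompted the choice and are a description. Spry1 was 14.8-fold and 13.4-fold lower in EAE and in naive rats (adjusted p = 2.37e-12 and 5.32e-12).

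Spred2 read 242.4, 315.9 and 333.4 in EAE biopsies against 331.6, 330.8 and 330.9 in EAE cultures. It read 285.6, 345.7 and 274.9 in naive biopsies against 251.5, 289.1 and 327.6 in naive cultures. Tissue and culture overlapped in both, at -0.16 ± 0.12 and 0.06 ± 0.12 (adjusted p = 0.235 and 0.673). Spred1 was 1.52-fold and 1.51-fold lower in the biopsies, and was no longer called with quantile scaling, at -0.02 in EAE and -0.05 in naive rats. The biopsies also carried neuron markers (all 8 above 50, summed to 16180 to 18730 in EAE and 16890 to 18430 in naive biopsies, against 3202 to 3346 and 3019 to 3455 in undifferentiated SVZ cultures) and lower cell cycle marker sums (1068 to 1565 and 1065 to 1352, against 5498 to 5894 and 4308 to 6093). Their part in the change of the feedback genes was not tested.

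The EAE contrasts asked whether disease in the donor rat left a trace in the cultures. In undifferentiated SVZ cultures Dusp6 read 3882, 3507 and 5089 in EAE against 1649, 2318 and 2091 in naive cultures, and Spry4 1892, 1696 and 2051 against 938.9, 1250 and 1046. Spry2 read 3402, 3088 and 3491 against 2199, 2668 and 2573, and Spry1 1472, 1586 and 1532 against 1124, 1379 and 1279. The log2 changes were 1.03 ± 0.16, 0.80 ± 0.12, 0.42 ± 0.10 and 0.28 ± 0.10, given as a description. With Spred2, 5 of the 10 genes were higher in EAE without overlap, where 19.4% of all probe sets were, while Dusp5 (-0.18 ± 0.19), Etv4 (0.13 ± 0.10) and Etv5 (0.07 ± 0.09) were not. The gap was near 0 for Etv5 and widest for Dusp6 and Spry4. Since those genes prompted the choice by their signals here, neither their place nor the count of 5 is a result.

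In undifferentiated caudal cord cultures 2 of the 10 genes were called lower in EAE, close to the share of all probe sets called lower. The median change of the genes was -0.47, beside -0.14 over all probe sets tested. Dusp5 fell by 0.98 ± 0.26 on the log2 scale (adjusted p = 0.0278) and Dusp6 by 0.59 ± 0.17 (adjusted p = 0.0348), beside 13.9% of all probe sets called lower (9.81% with 75th percentile scaling). Dusp6 read 696.3, 932.1 and 903.4 in EAE against 1360, 1072 and 1391 in naive caudal cultures, and Dusp5 93.6, 123.8 and 104.3 against 338.4, 250.4 and 134.4. Spry4, Spry2 and Spry1 were lower without overlap too and missed the threshold, at -0.64 ± 0.21, -0.54 ± 0.17 and -0.59 ± 0.20 (adjusted p = 0.0563, 0.0566 and 0.0693). Etv4 and Etv5 lay at -0.07 ± 0.27 and 0.01 ± 0.22 (adjusted p = 0.882 and 0.982). The 5 genes lower without overlap stand beside 29.5% of all probe sets. With quantile scaling 0 of the genes were called. Leaving out EAE array 1, EAE array 3 or naive array 1 gave 0 called genes, naive array 2 gave 1, and EAE array 2 gave 4. Without the shares of all probe sets beside them, such counts do not single out the 10 genes. Microglia and macrophage markers summed to 4494 to 5947 in EAE and 129.1 to 286.0 in naive caudal cultures, and fibroblast and pericyte markers to 378.7 to 3651 in EAE and 5036 to 12740 in naive ones. Their part in the result was not tested.

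Around the loop in caudal cultures, Igf1, a growth factor that microglia make, was higher in EAE (adjusted p = 6.12e-05), at 250.6 to 514.3 against 23.49 to 51.84 in naive cultures, where it was near or below the limit. The receptors Fgfr3 and Erbb2 were higher by 1.09 ± 0.14 and 0.69 ± 0.15, beside 3.32% of all probe sets called higher, and 6 others were lower, beside 13.9%, led by Pdgfrb at -1.85 ± 0.40 and Fgfr2 at -1.63 ± 0.19. Of 21 other feedback genes 7 were lower and 0 higher, among them Errfi1, an inhibitor of the epidermal growth factor receptor, at -1.50 ± 0.19. Immediate early genes gave 3 lower and 0 higher of 18, namely Egr1 at -1.02 ± 0.22, Egr2 at -0.83 ± 0.21 and Nr4a3 at -0.51 ± 0.16.

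In the other cord cultures 0 of the 10 genes were called between EAE and naive rats in either stage, by limma or by the methods' t-test. Among differentiated cultures 0.133% of all probe sets were called in cervical, 0% in thoracic and 0.89% in caudal ones, and 688, 1044 and 1545 had an unadjusted p under 0.05. In cervical undifferentiated cultures the arrays of both groups overlapped for all 10 genes, beside 8.48% of probe sets higher and 14.6% lower without overlap, with limma calling 0 of all probe sets (0%) and 1865 at an unadjusted p under 0.05. In thoracic undifferentiated cultures Dusp5 and Spry1 were lower in EAE without overlap, beside 7.29% of all probe sets. Dusp5 read 105.4, 133.2 and 137.5 in EAE against 303.8, 199.2 and 872.4 in naive thoracic cultures, a change of -1.49 ± 0.50 (adjusted p = 0.771), with 0% of probe sets called and 1115 at an unadjusted p under 0.05. After differentiation Spry1 stood at -0.74 ± 0.22 and Dusp6 at -0.52 ± 0.17 in EAE over the 3 segments (adjusted p = 0.0847 and 0.102), where 1.71% of all probe sets were called lower (2.49% in either direction) and 4009 had an unadjusted p under 0.05. Dusp5 had the largest mean shift in undifferentiated cord cultures, at -1.12 ± 0.35 (adjusted p = 0.0666), where 5.06% were called lower (6.75% in either direction) and 5471 had an unadjusted p under 0.05.

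In differentiated SVZ cultures Dusp6, Spry4 and Spry2 stood in the opposite order to undifferentiated ones, with EAE below naive. Dusp6 read 530.0, 331.6 and 439.4 in EAE against 804.9, 709.7 and 880.6 in naive cultures, and Spry4 142.9, 80.8 and 126.3 against 216.2, 173.8 and 203.7. All EAE arrays were below all naive arrays for both, and likewise for Dusp5, Spry2 and Etv4, where 1.17% of all probe sets were lower without overlap. The changes were -0.88 ± 0.18 for Dusp6 and -0.72 ± 0.20 for Spry4 (adjusted p = 0.189 and 0.200). No probe set of the array was called in this comparison (0%), although 3242 had an unadjusted p under 0.05, and the median of the 10 genes was -0.45 beside 0.14 over all. Naive replicate 3, one of those of low correlation, also held myelin and microglia markers well above its group mates. Without it Dusp6 was called among the 10 genes, at -0.80. The share of all probe sets called without that array is not given here, so the call does not single out Dusp6.

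In SVZ biopsies the 9 genes above the signal limit differed by -0.05 to 0.20 between EAE and naive rats (adjusted p = 0.996 to 0.997), beside 0.0151% of all probe sets called higher and 743 at an unadjusted p under 0.05. Dusp6 read 104.1, 154.2 and 148.7 in EAE and 129.8, 96.4 and 118.8 in naive biopsies, with overlap, unlike the SVZ cultures of either stage.

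**Figure D4:**
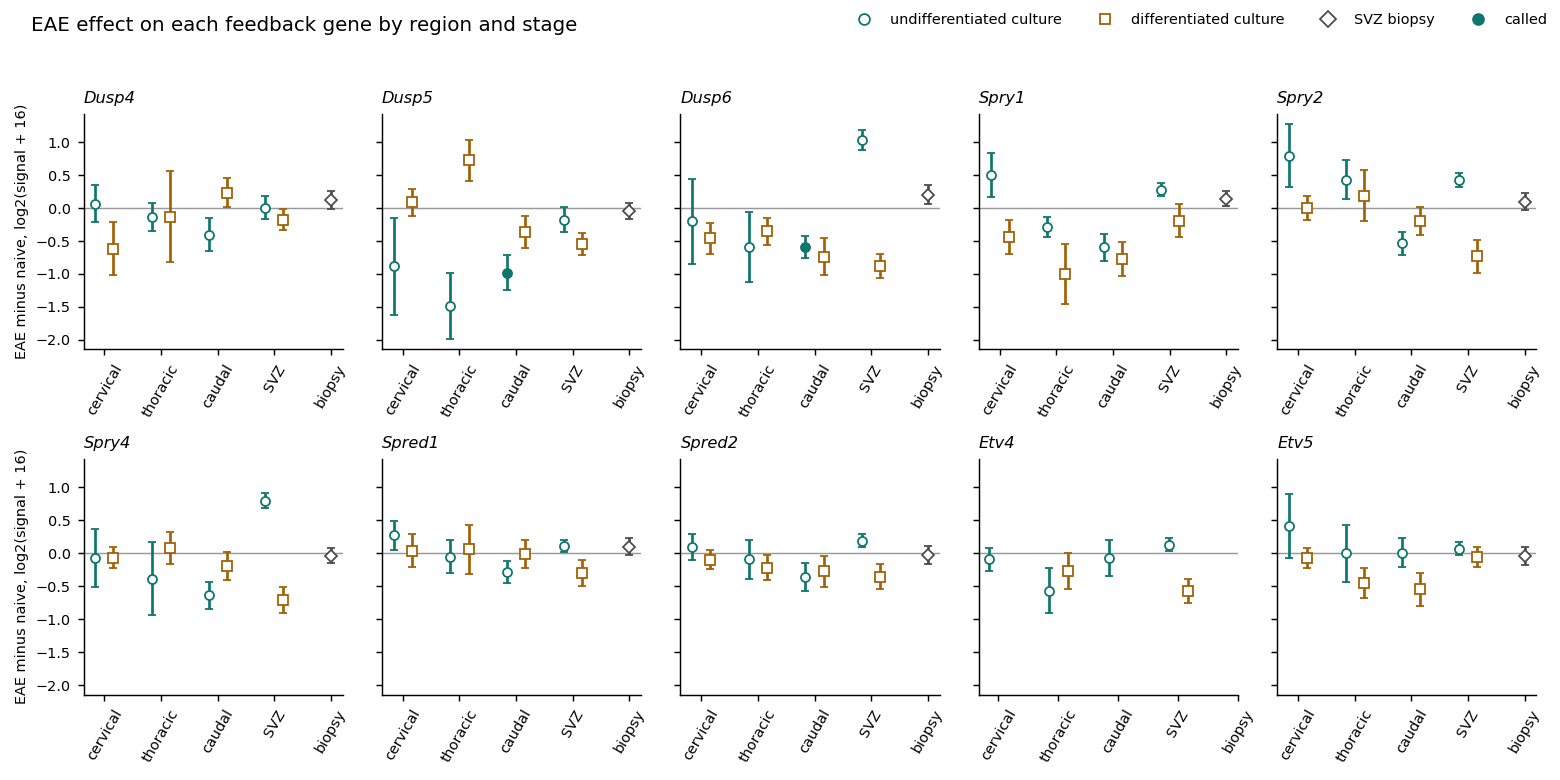
EAE minus naive difference of log2(signal + 16) with its standard error for each feedback gene, by region and stage (circles for undifferentiated and squares for differentiated cultures, diamonds for biopsies); filled symbols are called, and undifferentiated SVZ values are a description. Dusp6 and Spry4 lie at 1.03 and 0.80 in undifferentiated SVZ and below 0 in undifferentiated caudal and differentiated SVZ cultures.

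The 10 genes were correlated across the 18 groups, less so among differentiated cultures. The Pearson correlation of group means of log2(signal + 16) had a median of 0.78 over the 45 pairs of genes and ran between 0.23 and 0.98. Within the 8 undifferentiated groups the median was 0.89, and 38 of 45 pairs were above 0.8; all of these share the gap between SVZ and cord. Within the 8 differentiated groups the median was 0.22 and the lowest value -0.83. After subtraction of group means, over the 54 arrays, the median was 0.16. These are descriptions, since the points share stages, regions and array scaling.

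The genes of the array with the pattern most like each member, by the same correlation over the 18 groups, included another member for Dusp4, Dusp5, Spry1, Spry2 and Etv4, and an immediate early gene for Dusp5, Spry1 and Etv4; the rest were neither. For Spry1 they were Etv4 (0.98), Ier2 (0.97) and Nr4a1 (0.97), and for Etv4 Spry1 (0.98), Ier2 (0.98) and Emilin1 (0.97). Dusp5 was nearest Egr2 (0.98), Emilin1 (0.95) and Spry4 (0.94), and Spry4 was nearest Emilin1 (0.97), Bche (0.97) and Polg (0.96). For Spry2 they were Gfral (0.95), Spry4 (0.94) and Usp40 (0.94). Etv5 was nearest Dlg5 (0.99), Cbr3 (0.98) and Irs2 (0.98), and Dusp6 was nearest Eda2r (0.96), Mtap (0.96) and Septin9 (0.95). Dusp4, Spred1 and Spred2, with the smallest range of group means, were nearest Exosc5 (0.91), Spag9 (0.94) and Pds5b (0.96).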

How the data were processed

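The authors deposited gene-level signal intensity values from 54 Affymetrix arrays, summarised by PLIER with GC background correction and global median normalization, per the file headers. The submitters' processing notes name Affymetrix Expression Console. Which array type and genome build were used is not given in the sources used here. The authors' deposited table also holds ratio and p-value columns of pairwise Student tests, of which only ratios are printed, as the authors' values.

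The 10 genes and all gene and marker lists were chosen with earlier results of these data known. Main probe sets with a signal over 50 on at least 3 arrays of a comparison were tested on log2(signal + 16) with limma 3.58.1 in R 4.3.3 (lmFit, eBayes), 24 comparisons, each fitted on its own groups, with Benjamini-Hochberg adjustment over all probe sets tested. Calls needed an adjusted p no higher than 0.05 and a fold no smaller than 1.2. All 10 genes are named throughout; from each list, up to 3 called genes of the largest rise and 3 of the largest fall per comparison could be named, and Egfr and Pdgfra anywhere. The fit was tested on simulated data. Alternatives were log2(signal + 1), no filter, quantile and 75th percentile scaling, all 18 groups in 1 fit, a replicate block, leaving out replicates or arrays with a correlation under 0.96, and the methods' t-test. Promoters are RefSeq's, build GRCr8. The number of arrays limits precision.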

Additional observations from a re-analysis of the deposited data

Results flagged for a closer look

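The change of Etv4 on differentiation differed between cord and SVZ in naive cultures by 1.13 on the log2 scale, the only such difference called among the 10 genes; Etv4 was near a signal of 50 in differentiated cord cultures.

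In undifferentiated cultures every EAE array was above every naive array in the SVZ and below every naive array in the caudal cord for 4 genes. The SVZ change exceeded the caudal one by 1.62 for Dusp6, 1.44 for Spry4, 0.96 for Spry2 and 0.88 for Spry1 on the log2 scale. Spry1 had the same opposition between SVZ and thoracic cultures, with a gap of 0.57. Of all probe sets, 19.4% were higher in EAE without overlap in the SVZ and 29.5% were lower without overlap in the caudal cord. The share of probe sets with both is not given here. These differences between single regions were not tested. The SVZ side of each was known when the genes were chosen. Microglia and macrophage markers summed to 4494 to 5947 in EAE and 129.1 to 286.0 in naive caudal cultures, and to 152.9 to 167.8 in EAE and 128.9 to 141.1 in naive SVZ cultures. The part of those cells in the caudal values was not tested.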

How the results depend on the processing

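Of 80 called changes of the 10 genes, 62 stayed called under every alternative in which the gene was still tested. Another 18 lost their call under some, and none turned direction. The 80 include the changes of Dusp6 and Spry4 against undifferentiated EAE SVZ cultures, which are a description. Alternatives in which a gene no longer passed the signal filter are not counted there. Etv4 was tested in 6 of 9 alternatives in each biopsy comparison, and Dusp4 and Dusp5 in 8 of 9 for differentiation of EAE SVZ cultures. The calls in differentiation within the SVZ (9 to 10 genes), differentiation within the cord (8 to 9 in EAE, 6 to 8 in naive cultures), undifferentiated EAE cord against SVZ (8 to 10) and biopsies against cultures (8 to 9 in EAE, 8 to 10 in naive rats) moved little. Undifferentiated caudal EAE against naive cultures had 2 called genes, 0 with quantile scaling, all groups in 1 fit or the methods' t-test, and 1 with the replicate block; leaving out single arrays gave 0 to 4. Without the arrays of low correlation, 1 gene was called for EAE in undifferentiated thoracic, differentiated SVZ and undifferentiated cord cultures and 2 in differentiated thoracic and differentiated cord cultures, each against 0. The EAE effect in cord minus SVZ and differentiation in EAE minus naive cultures hold the SVZ contrast known when the genes were chosen; their counts without those arrays, 1 each against 0, are a description and not a test. In 1 fit of all groups, 1 gene was called in differentiated thoracic, undifferentiated cord and differentiated cord cultures, and quantile scaling gave 1 in the last. Leaving out arrays gave 0 to 1 in undifferentiated thoracic, differentiated SVZ and differentiated cord cultures and 0 to 2 in differentiated caudal ones. Differentiation in cord minus SVZ, 1 gene, gave 0 with log2(signal + 1), 3 with either rescaling, 4 with all groups in 1 fit, 7 without arrays of low correlation and 0 to 4 on leaving out replicates. Undifferentiated naive cord against SVZ, 5 genes, gave 8 without those arrays and 2 to 7 on leaving out replicates; differentiated naive, 3 genes, gave 1 with quantile scaling, with the replicate block and on leaving out any replicate, 1 to 1. The cause was not tested. Leaving out the arrays of low correlation left only replicate 1 in undifferentiated cervical, undifferentiated thoracic and differentiated thoracic naive cultures. Those arrays were picked as unlike their group mates, so counts without them are a description. Shares of all probe sets under these alternatives are not given beside the counts, so the counts do not single out the 10 genes. Correlations of same-numbered arrays ran between -0.44 and 0.44 for EAE and naive groups, where 0 of 9 group pairs had every one above 0.1. They gave no sign that numbers pair EAE with naive samples, but with 3 arrays per group they cannot exclude it. Between regions they ran from -0.51 to 0.92, with every one above 0.1 in 5 of 24 group pairs, 4 of them between cord segments, and between stages from -0.45 to 0.57, in 1 of 12. Cord means treat segments as independent, so their adjusted p may be too small. The replicate block moved no count of calls on cord means by over 1.5 times other than the differentiated naive one above. That block takes the same shift per replicate number in all groups of a comparison, so it cannot remove a correlation that differs between groups. The number of arrays and signals near 50, for Etv4 above all, limit what can be called.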
